A study of Mus musculus with 24 samples.

Results

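Potassium channel genes were taken as every GENCODE M21 protein-coding gene whose symbol starts with Kcn, which gave 94 genes of the 21910 protein-coding genes and 55177 genes in all. Their products carry the potassium currents that set the resting potential, shape and repeat the action potential, and slow or stop firing in neurons. The 94 genes comprised 8 Kv1, 2 Kv2, 4 Kv3 and 3 Kv4 genes, 10 electrically silent Kv genes, 5 Kv7 genes, 8 genes of the EAG family, 4 of the Slo family, 4 of the small and intermediate conductance (SK/IK) family, 15 inward rectifiers (Kir), 14 leak channels of the tandem-pore-domain (K2P) family, 16 auxiliary subunits and Kcnrg, a soluble regulator. RNA sequencing had been done on 24 libraries of primary cortical neurons from mouse embryos at embryonic day 16.5, and per the growth protocol the cortex of each embryo was 1 biological replicate. All cultures were silenced overnight with 1 µM tetrodotoxin, a sodium channel blocker, and 100 µM D-AP5, an NMDA receptor blocker, and depolarization was done with 50 mM KCl over 30 min. After 7 days in vitro (DIV7), wild-type neurons in 0.1% DMSO were sequenced from poly(A) RNA at rest (2 libraries) and after KCl (2). After 18 days (DIV18), rRNA-depleted total RNA was sequenced from neurons with a non-targeting guide RNA (NT; 2 at rest, 2 after KCl) and from neurons with a Smarcc2 knockout that carried an empty vector (Vec; 3 and 3), wild-type Smarcc2 added back (WT; 2 and 3), Smarcc2 with the S586E substitution (3 at rest) or Smarcc2 with the S586A substitution (2 after KCl). Smarcc2 is a core subunit of the BAF chromatin remodelling complex, and the design text names serine phosphorylation of Smarcc2 as the question behind the DIV18 cultures.

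Voltage-gated Kv channels open on depolarization, and those of the Kv1, Kv3, Kv4 and Kv7 families set threshold, spike width, subthreshold A-type current and the M-current that restrains repeated firing. Silent Kv subunits form no channel alone and modify Kv2 channels. Kir and K2P channels conduct near rest, and the Kcnj3, Kcnj6 and Kcnj9 subset is opened by G proteins. Auxiliary subunits bind the pore proteins and change their gating and traffic.

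Promoter windows were read for 4 genes on which the comparisons turned: Kcnh7 and Kcnj4, called higher after KCl at DIV7, Kcnh5, the Kcn gene with the largest difference on counts between culture ages, and Kcnf1, called in knockout cultures in both states. Each window is the 250 bases before the RefSeq start site (GRCm38.p6), on the minus strand, with no annotated exon of any gene inside it. Kcnh7 lies on chromosome 2 (chr2:63184288-63184537), Kcnj4 on chromosome 15 (chr15:79505242-79505491), and Kcnh5 and Kcnf1 on chromosome 12 (chr12:75177333-75177582 and chr12:17176889-17177138). Capitals mark matches on either strand to the partial CRE site TGACG or the GC box GGGCGG.
Kcnh7: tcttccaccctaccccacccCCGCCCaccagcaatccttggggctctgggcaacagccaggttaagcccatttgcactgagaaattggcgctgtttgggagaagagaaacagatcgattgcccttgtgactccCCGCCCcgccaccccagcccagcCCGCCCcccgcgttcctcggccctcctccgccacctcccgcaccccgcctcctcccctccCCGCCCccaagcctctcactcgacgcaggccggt
Kcnj4: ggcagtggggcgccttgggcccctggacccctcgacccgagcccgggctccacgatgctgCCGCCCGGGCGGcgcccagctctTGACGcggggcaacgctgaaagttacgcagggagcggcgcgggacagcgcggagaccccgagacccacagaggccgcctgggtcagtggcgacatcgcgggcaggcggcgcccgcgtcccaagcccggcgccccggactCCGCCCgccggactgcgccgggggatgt
Kcnh5: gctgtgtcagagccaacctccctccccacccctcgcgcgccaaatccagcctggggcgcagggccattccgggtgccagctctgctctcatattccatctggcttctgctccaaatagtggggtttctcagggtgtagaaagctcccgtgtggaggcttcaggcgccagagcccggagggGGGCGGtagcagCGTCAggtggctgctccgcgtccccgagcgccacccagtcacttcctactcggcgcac
Kcnf1: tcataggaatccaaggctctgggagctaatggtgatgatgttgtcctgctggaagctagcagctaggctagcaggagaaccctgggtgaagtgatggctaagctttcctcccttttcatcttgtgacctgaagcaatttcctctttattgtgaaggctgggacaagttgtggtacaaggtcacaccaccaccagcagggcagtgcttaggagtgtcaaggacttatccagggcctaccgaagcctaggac
Kcnh7 held 4 GC boxes, starting 230, 117, 94 and 34 bases before the start site. Kcnj4 held a partial CRE site at 167 bases and GC boxes at 190, 184 and 28 bases. Kcnh5 held a partial CRE site at 58 bases and a GC box at 70 bases, and the Kcnf1 window held none of the searched motifs. Windows were given for 69 of the 94 genes. Of these, 41 (59.4%) held a GC box, against 35.4% of all 27025 genes with a window, and 15 (21.7%) a partial CRE site, against 19.8%. The whole CRE, TGACGTCA, which contains the partial site, occurred in 0 of 69 and in 1.77% of all genes, and the AP-1 letters TGANTCA in 4 (5.80%; Kcne3, Kcnip3, Kcnip4 and Kcnk2), against 7.82%. A gene was counted if any of its windows matched, and some genes had several windows. These are letter matches and do not show binding.

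The DIV7 libraries held between 24536056 and 30135576 estimated counts each, and the DIV18 libraries between 14510199 and 24024959. Protein-coding genes held 96.7% to 96.9% of the counts at DIV7 and 77.7% to 83.6% at DIV18. Smarcc2 lay between 237 and 283 CPM (counts as a rate per library, scaled with TMM) in the NT libraries, between 47.1 and 64.1 CPM in the Vec libraries, and between 737 and 1340 CPM in the libraries with a Smarcc2 addback. All 6 depolarization-induced genes chosen as a check (Fos, Fosb, Npas4, Arc, Egr1 and Nr4a1) were called higher after KCl at DIV7, and 1 in NT, 5 in Vec and 4 in WT cultures at DIV18. Neuronal markers were abundant in every group (8 genes, 3916 to 6094 CPM summed). Astrocyte markers were present as well (6 genes, 489 to 1762 CPM summed), so that values are those of mixed cultures, in which fewer cells of a type and less RNA per cell cannot be told apart.

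Levels were compared between genes per transcript length, as deposited TPM, a share of transcripts corrected for their length, summed over each gene's transcripts. High Kcn genes in resting DIV7 neurons were Kcnmb4, the neuronal beta subunit of the BK channel, with a mean of 50.7 TPM, Kcnk9, an acid-sensitive leak channel, at 49.1 TPM, Kcnab2, a Kv1 beta subunit, at 48.8 TPM, and Kcnma1, the BK pore, at 46.9 TPM. The libraries of these 4 genes overlapped between 44.4 and 53.1 TPM, so that their order is not resolved. Next came Kcna6 (41.5 TPM), Kcnk1 (40.4), Kcnq5 (35.9), Kcnd2 (34.4), Kcnk2 (32.0), Kcnk10 (32.0) and Kcnh3 (30.5), in which neighbours from Kcnq5 to Kcnk10 overlapped between libraries.
In resting NT neurons at DIV18, Kcnab2 led at 103 and 97.1 TPM. Kcnip3, a calcium-binding partner of Kv4 channels that is also known as a transcriptional repressor, was at 50.7 and 53.7 TPM. The ranges of these genes did not overlap. Lower levels were those of Kcnma1 (41.4 TPM), Kcnk1 (36.8), the inward rectifier Kcnj4 (35.6), the SK channel Kcnn1 (30.2), Kcna1 (29.4), Kcna6 (26.4), Kcna2 (26.3) and Kcnj9 (25.7), with overlap from Kcnma1 to Kcnj4, between Kcnn1 and Kcna1, and between Kcna6, Kcna2 and Kcnj9.
K2P genes held 17.1% of the summed Kcn TPM in resting DIV7 neurons and 7.54% in resting NT neurons, and Kv4 genes 5.76% and 2.20%. Kir genes held 7.94% and 14.3%, and auxiliary subunits 15% and 22.6%. These family shares are set within a library and carry no test.

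**Figure D1:**
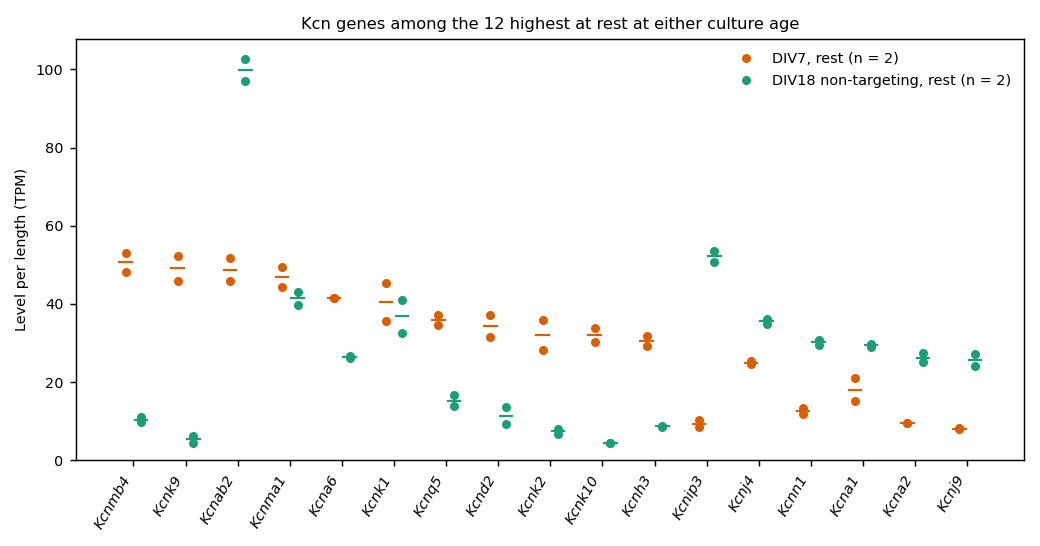
Level per length (TPM, vertical axis) of 17 Kcn genes that were among the 12 highest at rest at DIV7 or in NT cultures at DIV18. Each point is a library and each line the mean of 2 libraries; Kcnmb4, Kcnk9, Kcnab2 and Kcnma1 lie close together at DIV7, and Kcnab2 and Kcnip3 stand high at DIV18.

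Culture age was compared between resting NT neurons at DIV18 and resting wild-type neurons at DIV7. Age, RNA selection, guide RNA and DMSO all differ between these groups and cannot be told apart. Of 78 Kcn genes tested on counts, 39 were higher and 17 lower at DIV18 (edgeR, adjusted p under 0.05), where 52.7% of all 22459 genes were called, 26.8% higher and 25.9% lower. Their median log2 difference was 0.93, against 0.01 over all genes. On the scale of log2(TPM + 0.5), tested with limma after the data were seen, the split was 15 higher and 38 lower, where 70.6% of all genes were called, 6.1% higher and 64.5% lower. There the median of all genes lay at -0.93 and that of the Kcn genes at -0.26, which is 0.67 above all genes.
All 15 genes called higher on the TPM scale were among the 39, and all 17 genes called lower on counts were also called lower on the TPM scale. Kcna6 and Kcnt1 were among 3 genes called higher on counts and lower on the TPM scale, with log2 differences of 0.63 and 0.89 on counts and -0.64 and -0.95 on the TPM scale. Relative to the median of all genes on that scale they lay at 0.29 and -0.02. Another 21 of the 39 were not called on the TPM scale, among them Kcnc1, Kcnma1 and Kcnk1. Statements of higher or lower that follow are on counts, with CPM from the fit of all 24 libraries, and TPM-scale values carry the shift of all genes given above. Groups without overlap between libraries were common: 79.8% of all genes and 87.2% of the Kcn genes had none between these 2 ages. Of the genes called, Kcng4 and Kcnj5 passed the count filter at DIV18 only when each age was fitted alone, and Kcnh8 at DIV7 only. These genes entered the comparison through the age where they are high, so that their calls partly follow from the filter.

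Kcnh5, an ether-a-go-go channel, had the largest difference of the Kcn genes on counts: 1.13 and 1.49 CPM in the DIV7 libraries against 24.6 and 33.2 CPM in the NT libraries (log2 difference 4.47, SE 0.26, adjusted p 5.8e-12, edgeR). Kcnip3 was at 12.9 and 10.5 CPM at DIV7 and at 152 and 161 CPM at DIV18, a log2 difference of 3.73 (SE 0.15). On the TPM scale both remained high, at 2.53 and 2.43. Both older libraries lay far above both younger ones for each gene.
Of the EAG family, 5 of 8 genes were higher and 2 lower. Kcnh6, an Erg channel, rose from 1.88 and 1.49 CPM to 9.81 and 9.86 CPM, and Kcnh1 from 30.7 and 22.3 CPM to 111 and 143 CPM. The Elk-type genes moved the other way: Kcnh4 fell from 7.00 and 9.41 CPM to 0.692 and 0.935 CPM, and Kcnh8 from 2.16 and 1.99 CPM to 0.389 and 0.187 CPM. Their log2 differences were -3.33 and -2.81, and Kcnh8 passed the count filter at DIV7 only. The third Elk gene, Kcnh3, was not called (log2 difference -0.51, SE 0.27, adjusted p 0.116, edgeR).
Among inward rectifiers 8 of 11 tested were higher and 2 lower. Kcnj9, a subunit of G protein-gated channels, was at 12.9 and 12.3 CPM at DIV7 and at 93.0 and 108 CPM at DIV18 (log2 difference 2.99, SE 0.12). Its partners Kcnj6 (2.02) and Kcnj3 (1.97) and the constitutive rectifier Kcnj4 (1.76) were called higher on both scales. Kcnj5, also of this class, passed the count filter at DIV18 only. It had a log2 difference of 2.35 from 0.0938 and 0.0710 CPM at DIV7 to 0.519 and 0.374 CPM at DIV18. Kcnj16 went from 3.16 and 2.84 CPM to 0.821 and 0.374 CPM, and Kcnj14 had a log2 difference of -1.58.
Kcnj10, the astrocytic rectifier, had a log2 difference of 1.91 (SE 0.49, adjusted p 0.00247, edgeR) on counts and 0.66 on the TPM scale, where it was not called. The summed level of the 6 astrocyte markers ran from 455 to 520 CPM at DIV7 and from 1388 to 1632 CPM in resting NT cultures, and Slc1a2 was called higher. Of 7 markers of the oligodendrocyte lineage, 5 were called higher, with sums of 50.2 to 60.2 CPM and 199 to 209 CPM; none was at 0 in both libraries of a group. The part of these cells in the Kcn differences was not tested.

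Kcna2, an axonal Kv1 channel, was at 51.4 and 52.2 CPM at DIV7 and at 305 and 272 CPM at DIV18 (log2 difference 2.48, SE 0.11), and Kcna1, its partner, had a log2 difference of 2.02. Both were called higher on the TPM scale. Kcna4, an A-type Kv1 channel, was lower (-0.56), although with length offsets its sign turned (0.01, adjusted p 0.975, edgeR). With protein-coding transcripts only, Kcna6 also turned, to -1.53 (adjusted p 0.15).
Of the Kv3 genes, Kcnc1 (1.08), Kcnc2 (1.53) and Kcnc4 (1.69) were higher on counts. On the TPM scale Kcnc4 was called (0.45), and Kcnc1 and Kcnc2 were not. The A-type Kv4 genes lay lower: Kcnd3 (-0.80) and Kcnd2 (-0.37) were called on counts and on the TPM scale (-1.88 and -1.57), and Kcnd1 on the TPM scale only, where it lay at -0.27 relative to the median of all genes.
Silent Kv genes split, with 4 higher and 3 lower of 10. Kcng4, which passed the count filter at DIV18 only, went from 0.188 and 0.177 CPM to 1.56 and 1.07 CPM. Kcns2 and Kcng2 had log2 differences of 1.99 and 1.70. Kcng1 (-0.84), Kcns1 (-0.80) and Kcng3 (-0.74) were lower. Among calcium- and sodium-activated channels, Kcnn1 was higher on both scales (2.21 on counts), while Kcnn2 (0.11, adjusted p 0.569, edgeR) and Kcnn3 (-0.26, adjusted p 0.287) were not called on counts.

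K2P genes had the lowest family median of the families with more than 3 tested genes, at -0.38, with 4 of 9 lower and 2 higher. Kcnk9 went from 322 and 281 CPM to 89.2 and 64.4 CPM (log2 difference -1.97, SE 0.19), which on the per-length scale was 52.2 and 45.9 TPM against 6.29 and 4.49 TPM. Kcnk10, a lipid- and stretch-gated leak channel, went from 63.6 and 64.7 CPM to 19.1 and 18.5 CPM (-1.77, SE 0.14), and its relative Kcnk2 had a log2 difference of -0.79. Kcnk13 fell from 4.00 and 2.59 CPM to 1.21 and 0.327 CPM. Kcnk1 (1.00) and Kcnk12 (1.52) were higher on counts and were not called on the TPM scale, where they lay 0.80 and 1.19 above the median of all genes.
Among auxiliary subunits 6 of 11 tested were higher and 3 lower. Kcnab2 was at 58.6 and 52.1 CPM at DIV7 and at 320 and 280 CPM at DIV18 (log2 difference 2.44, SE 0.16), and Kcnab3 (2.05) and Kcnab1 (1.56), the other Kv1 beta subunits, were higher too, Kcnab1 on counts only. The tested BK beta subunits were lower. Kcnmb4 had a log2 difference of -0.99, and Kcnmb2 went from 3.85 and 4.69 CPM to 1.56 and 0.841 CPM. Kcnmb1 and Kcnmb3 passed the count filter in no fit. Kcne1l, a member of the Kcne family of small single-pass subunits, went from 2.19 and 2.24 CPM to 0.648 and 0.561 CPM. The Kv1 beta genes and the tested BK beta genes were therefore called in opposite directions.

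**Figure D2:**
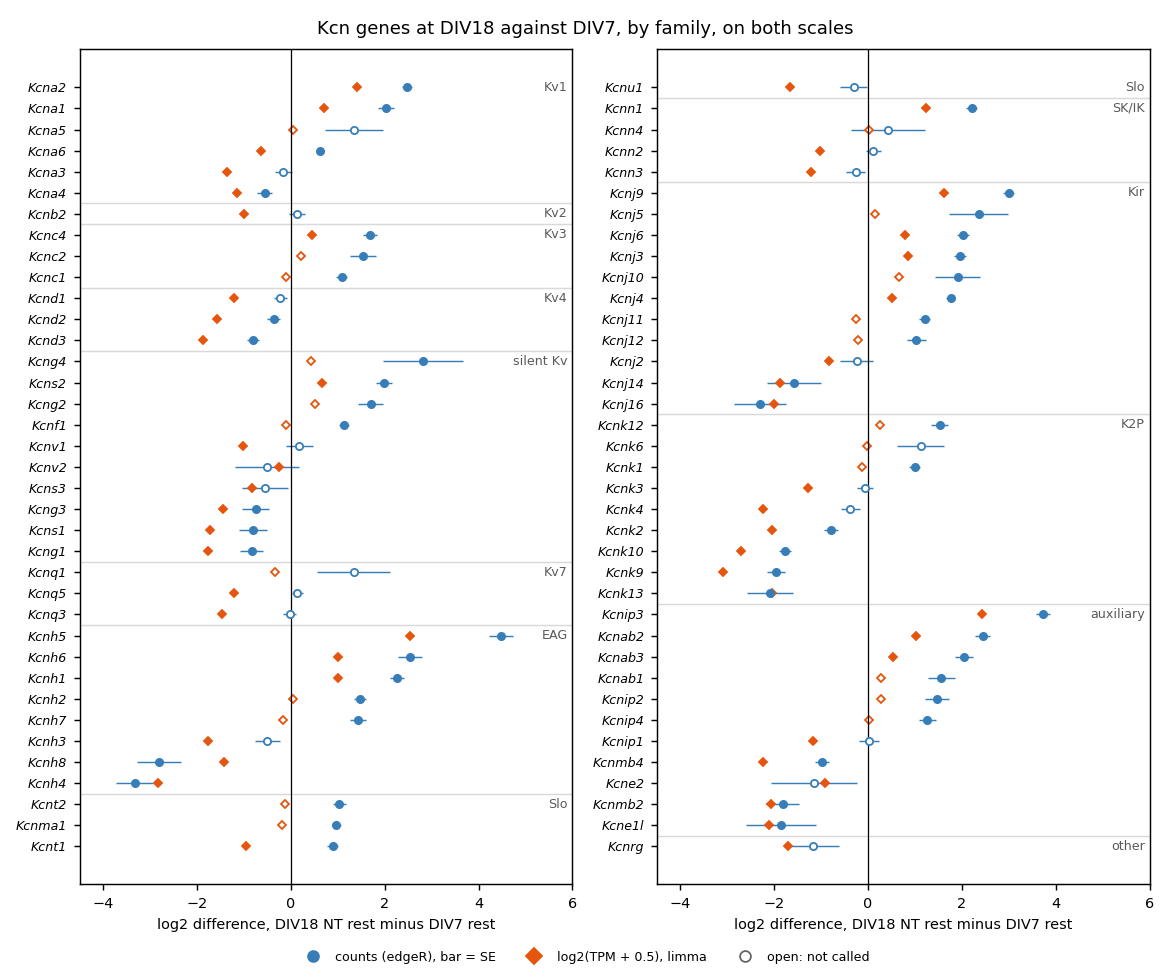
Log2 difference between resting NT neurons at DIV18 and resting wild-type neurons at DIV7 (horizontal axis) for 74 of the Kcn genes tested, by family. Circles are edgeR values on counts with their SE, diamonds the difference in log2(TPM + 0.5), and open symbols were not called; Kcnh5 and Kcnip3 lie farthest right on both scales and the diamonds carry the shift of all genes, whose median lies at -0.93 on the TPM scale.

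Of 75 Kcn genes tested at DIV7, 6 were higher and 5 lower after 30 min of KCl (edgeR; 14.7% in all), where 17% of all 19822 genes were called, 7.34% higher and 9.67% lower. The median of the Kcn genes was -0.03 and that of all genes -0.0014. The genes that rose belonged to the EAG, Kv7, Kv4 and Kir families and to the Kv1 beta subunits, and those that fell to the K2P, Kir, SK and silent Kv families. All but 1 of the 11 changed by less than 1 log2 unit. On simulated data the DIV7 fit gave a larger share of false calls than the threshold aims at, which bears on calls near the threshold.
Kcnh7 (ENSMUSG00000059742.10, chromosome 2, 62693414 to 63184287, minus strand), an Erg channel, rose from 50.2 and 52.3 CPM at rest to 77.4 and 79.0 CPM after KCl (1.53-fold; log2 fold change 0.61, SE 0.05, adjusted p 0.000961). The Kv7 genes of the M-current were next: Kcnq5 rose from 101 and 95.8 CPM to 125 and 132 CPM (0.38, SE 0.05, adjusted p 0.00516, edgeR), and Kcnq3 from 124 and 122 CPM to 150 and 155 CPM (0.31, SE 0.05, adjusted p 0.00552). Both KCl libraries were above both resting libraries for each of these genes.
Kcnd2, an A-type channel of dendrites, rose from 105 and 89.4 CPM to 131 and 117 CPM (0.35, SE 0.09, adjusted p 0.0366, edgeR). Kcnab1 rose from 7.33 and 7.85 CPM to 10.4 and 10.1 CPM (0.43, SE 0.11, adjusted p 0.0371), and Kcnj4 from 27.9 and 27.3 CPM to 34.2 and 32.2 CPM (0.27, SE 0.07, adjusted p 0.0442). The gain of Kcnh7 was the largest of the 6, and no groups overlapped, as in 59.1% of all genes and 58.7% of the Kcn genes tested.
Kcnk10 (ENSMUSG00000033854.10, chromosome 12, 98429437 to 98578310, minus strand) had the lowest p among Kcn genes and fell from 71.4 and 73.4 CPM to 43.0 and 44.4 CPM (0.604 of rest; log2 fold change -0.73, SE 0.06, adjusted p 0.000534, edgeR). Kcnk3, another acid-sensitive leak channel, fell from 19.9 and 16.9 CPM to 13.3 and 13.4 CPM (-0.47, SE 0.10, adjusted p 0.025). Kcnk9, of the same acid-sensitive type, was at 361 and 319 CPM at rest and at 354 and 323 CPM after KCl and was not called. Of the 9 K2P genes tested, these 2 fell and none was called higher.
Kcnj11, the pore of ATP-sensitive channels, fell from 21.2 and 20.7 CPM to 16.4 and 17.6 CPM (-0.30, adjusted p 0.0488), and Kcnn3, an SK channel, from 32.5 and 32.4 CPM to 26.0 and 27.9 CPM (-0.27, adjusted p 0.0464, edgeR). Kcns3, a silent Kv subunit, fell from 1.12 and 0.886 CPM to 0.406 and 0.401 CPM (-1.31, SE 0.35, adjusted p 0.0437), the largest change of the 11. Kcnj10 went from 37.6 and 27.8 CPM to 21.3 and 26.5 CPM without passing (-0.46, adjusted p 0.095). Of the 6 astrocyte markers, Gfap and Slc1a3 were called lower, with sums of 517 to 584 CPM at rest and 489 to 499 CPM after KCl, and the part of this in the Kcn changes was not tested.
Kcnh7, Kcnq5 and Kcnk10 were called under all 10 alternatives, Kcnq3 under all but length offsets (adjusted p 0.151, edgeR). The count of called Kcn genes was 4 without KCl replicate 1, 6 without resting replicate 2, 7 without resting replicate 1 and 12 without KCl replicate 2.

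**Figure D3:**
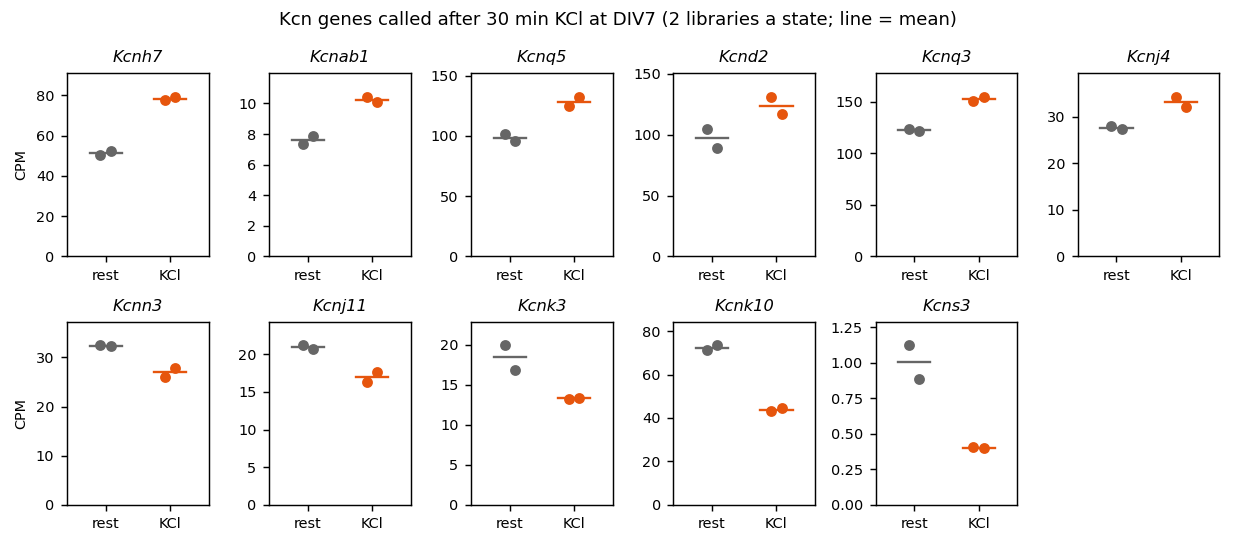
TMM-scaled counts relative to library size (CPM, vertical axes from 0) of the 11 Kcn genes called after 30 min of KCl at DIV7, in the 2 resting and 2 depolarized libraries, with group means as lines. The resting and depolarized libraries of these genes do not overlap, as in 59.1% of all genes; Kcnh7 and Kcnk10 are the most separated relative to their spread.

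At DIV18 the same depolarization left 0 of 76 Kcn genes called in NT, Vec or WT cultures by edgeR, where 0.00955%, 0.0716% and 0.043% of all 20940 genes were called, and DESeq2 also called 0 in each. At an unadjusted p under 0.05 there were 7, 16 and 1 Kcn genes (9.21%, 21.1% and 1.32%), against 4.33%, 10.3% and 4.97% of all genes. In Vec cultures 13 of the 16 were lower after KCl (17.1%, against 4.88% of all genes), and the Kcn median was -0.10, against -0.0049 over all genes. The Kcn genes with the lowest p there were Kcna1 (log2 fold change -0.41, SE 0.12, adjusted p 0.278, edgeR), Kcnj6 (-0.35, SE 0.11, adjusted p 0.295) and Kcns1 (0.84, SE 0.28, adjusted p 0.322).
Kcna1 was at 157, 136 and 119 CPM in the resting Vec libraries and at 108, 110 and 92.7 CPM after KCl. Each depolarized library lay below each resting one; 15.7% of all genes and 21.1% of the Kcn genes had no overlap in either direction. In NT cultures the same gene was at 125 and 127 CPM at rest and at 125 and 139 CPM after KCl.
None of the 11 genes called at DIV7 was called in NT cultures. Kcnh7 had a log2 fold change of 0.09 (95% interval -0.25 to 0.43), Kcnq5 of 0.00 (-0.23 to 0.24), Kcnq3 of 0.04 (-0.25 to 0.33) and Kcnk10 of -0.08 (-0.37 to 0.22). Kcnd2 had 0.29 (0.02 to 0.55), near its DIV7 value, and Kcns3 had 1.31 (0.33 to 2.29), opposite in sign to DIV7. The sign of Kcns3 turned in NT cultures only: it was -0.65 (-1.45 to 0.15) in Vec and -0.70 (-1.57 to 0.17) in WT. In Vec the interval excluded 0 only for Kcnq3 (-0.37, -0.60 to -0.13) and Kcnk3 (0.33, 0.02 to 0.64), both opposite in sign to DIV7. In WT it did so only for Kcnj11 (-0.25, -0.48 to -0.02), which kept its DIV7 direction. The rest of the 11 genes had intervals that held 0, with signs both like and unlike DIV7 in Vec and in WT. In a fit of all libraries the difference between the NT and DIV7 responses was -0.54 for Kcnh7 (SE 0.23, adjusted p 0.349, edgeR), -0.40 for Kcnq5 (SE 0.16, adjusted p 0.324) and 0.63 for Kcnk10 (SE 0.19, adjusted p 0.105). Kcns3, at the low levels given above, came nearest, at 2.60 (SE 0.69, adjusted p 0.057, edgeR). The test of this difference called 0 of 78 Kcn genes by edgeR, where 1.82% of all genes were called, with 12 at an unadjusted p under 0.05 (15.4%, against 11.2% of all genes) and 3 by DESeq2, so that a difference in the Kcn response between ages was not established. Culture age and RNA selection cannot be told apart here either.

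Loss of Smarcc2 was read from Vec against NT cultures. The titles name a vector for Vec and none for NT, so that knockout and vector cannot be told apart in this comparison. At rest 5 of 76 Kcn genes were higher and 5 lower (edgeR), where 5.9% of all genes were called (2.13% higher, 3.77% lower), and after KCl 4 were higher and 3 lower, where 2.67% were (0.726% higher, 1.95% lower). The Kcn median was 0.07 at rest and -0.10 after KCl, against 0.02 over all genes in both states. Kcnf1, a silent Kv subunit, was higher and Kcnab3, a Kv1 beta subunit, lower in both states. The remaining calls were made in 1 state each, and no Kcn gene was called for a difference between the Vec and NT responses to KCl (0 of 76 by edgeR and by DESeq2, 19 or 25% at an unadjusted p under 0.05, against 8.81% of all genes; 0% of all genes called).
Kcnf1 (ENSMUSG00000051726.6, chromosome 12, 17172100 to 17176888, minus strand) was at 125 and 110 CPM in resting NT libraries and at 187, 195 and 173 CPM in resting Vec libraries (1.58-fold; log2 fold change 0.66, SE 0.10, adjusted p 0.00111, edgeR). After KCl it was at 114 and 121 CPM in NT and at 167, 187 and 173 CPM in Vec (1.49-fold; 0.57, SE 0.10, adjusted p 0.00576). Every Vec library lay above every NT library in both states; 34.4% of all genes had no overlap at rest and 35.8% after KCl (36.8% and 56.6% of the Kcn genes).
Kcnab3 (ENSMUSG00000018470.8, chromosome 11, 69326258 to 69333042, plus strand) was at 14.2 and 13.6 CPM in resting NT and at 9.42, 7.91 and 6.88 CPM in resting Vec libraries (-0.78 in log2, SE 0.17, adjusted p 0.00998, edgeR), and at 15.4 and 10.5 CPM against 8.14, 7.17 and 6.91 CPM after KCl (-0.80, SE 0.17, adjusted p 0.0176). It was the only auxiliary subunit called at rest. An antisense gene, Kcnab3os, overlaps it, and the use of strand in the counting is not given in the sources used here. Genes on the opposite strand also overlap Kcnh7, Kcnk10 and Kcnq3, among others.

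Silent Kv genes made up 3 of the 5 genes that were higher at rest, of 10 tested. Kcng1 was at 15.9 and 12 CPM in NT and at 27.6, 25.5 and 31.0 CPM in Vec (log2 fold change 1.01, SE 0.25, adjusted p 0.0213, edgeR). Kcns2 was at 29.1 and 24.3 CPM in NT and at 44.3, 37.6 and 40.9 CPM in Vec (0.61, SE 0.13, adjusted p 0.00998). These groups did not overlap at rest, whereas after KCl Kcng1 was at 15.1 and 16.3 CPM in NT and at 14.6, 16.4 and 23.5 CPM in Vec.
Kcnk9 was at 87.7 and 63.2 CPM in resting NT and at 165, 136 and 126 CPM in resting Vec libraries (1.88-fold; 0.91, SE 0.18, adjusted p 0.00663, edgeR). Kcna4 was at 7.90 and 8.31 CPM in NT and at 11.3, 12.5 and 12 CPM in Vec (0.56, SE 0.15, adjusted p 0.0321). After KCl the Kcnk9 groups overlapped, with NT at 86.4 and 135 CPM and Vec at 108, 110 and 112 CPM.
Among the genes lower at rest were members of the EAG and Kir families. Kcnh2, an Erg channel also central to cardiac repolarization, was at 42.5 and 50.7 CPM in NT and at 27.0, 31.7 and 36.9 CPM in Vec (-0.55, SE 0.12, adjusted p 0.0106, edgeR), and Kcnj4 at 82.2 and 80.2 CPM against 61.0, 57.3 and 67.1 CPM (-0.39, SE 0.09, adjusted p 0.015). Neither gene overlapped between groups.
After KCl the calls beyond Kcnf1 and Kcnab3 were in other genes. Kcnk2 was at 19.1 and 14.5 CPM in NT and at 27.2, 24.4 and 29.0 CPM in Vec (0.67, SE 0.15, adjusted p 0.0197, edgeR). Kcnip4 was at 26.3 and 19.3 CPM against 36.3, 33.1 and 41.3 CPM (0.69, SE 0.17, adjusted p 0.0377), and the inward rectifier Kcnj12 at 8.81 and 5.98 CPM against 11.7, 12.3 and 12.4 CPM (0.71, SE 0.19, adjusted p 0.0467). In all 3 the second NT library was the lowest of the 5.
Kcnip3 was at 147 and 151 CPM in NT and at 119, 114 and 90.1 CPM in Vec after KCl (-0.47, SE 0.12, adjusted p 0.0377, edgeR), so that every Vec library lay below both NT libraries. At rest Kcnip3 had a log2 fold change of -0.39 (adjusted p 0.055).

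Averaged over both states, a contrast added after the data were seen, 8 Kcn genes were higher and 12 lower in Vec than in NT (edgeR), where 11.2% of all genes were called, 4.21% higher and 7% lower. Kcnf1 (0.62, SE 0.07, adjusted p 3.26e-05), Kcnab3 (-0.79, SE 0.12, adjusted p 0.000361), Kcnj4 (-0.35), Kcnip3 (-0.43) and the sodium-activated channel Kcnt1 (-0.38) were among those called under all 17 alternatives of this contrast. Others called were Kcnt2 (0.41), Kcna4 (0.47), Kcns2 (0.35), Kcnk2 (0.37), Kcnip4 (0.43), Kcnk9 (0.45) and Kcng1 (0.61), which were higher, and Kcnh2 (-0.39), Kcnn1 (-0.30), Kcnab1 (-0.61), Kcnk3 (-0.39) and Kcnh1 (-0.25), which were lower. Without resting NT replicate 2 this count was 9, and the count at rest was 0, with Kcnf1 at an adjusted p of 0.0566 (edgeR). After KCl the count was 4 without NT replicate 1, 1 without NT replicate 2, and 3, 2 and 1 without Vec replicates 1, 2 and 3; with 1 NT library left, it is assumed to vary like the other groups.
Glial markers moved with these comparisons. The 6 astrocyte markers summed to 1363 to 1604 CPM in resting NT and 899 to 1249 CPM in resting Vec cultures, and to 1274 to 1762 CPM and 738 to 866 CPM after KCl. Of them, Slc1a2 was called lower at rest and Aqp4 and Slc1a2 after KCl. Of 7 markers of the oligodendrocyte lineage, 4 were called lower at rest and 3 after KCl, with sums of 195 to 205 CPM and 133 to 151 CPM at rest and 129 to 211 CPM and 112 to 132 CPM after KCl; Sox10 was at 0 in every resting Vec library. The 8 neuronal markers summed to 4999 to 5037 CPM in resting NT and 4745 to 5450 CPM in resting Vec cultures. After KCl they summed to 4976.5 to 5379 CPM in NT and to 4368 to 4603 CPM in Vec cultures, so that Vec lay lower without overlap. Markers of vessels and fibroblasts summed to 16.1 to 23.1 CPM and 34.4 to 49.3 CPM at rest, with Cldn5 at 0 in both. The part of these cells in the Kcn differences was not tested. Kcnj10 was at 121 and 92.8 CPM in resting NT, at 138, 85.8 and 33.2 CPM in resting Vec, at 81.2 and 155 CPM in NT after KCl and at 35.5, 52.1 and 41.5 CPM in Vec after KCl, and was not called (-1.46, adjusted p 0.0903 after KCl, edgeR).

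**Figure D4:**
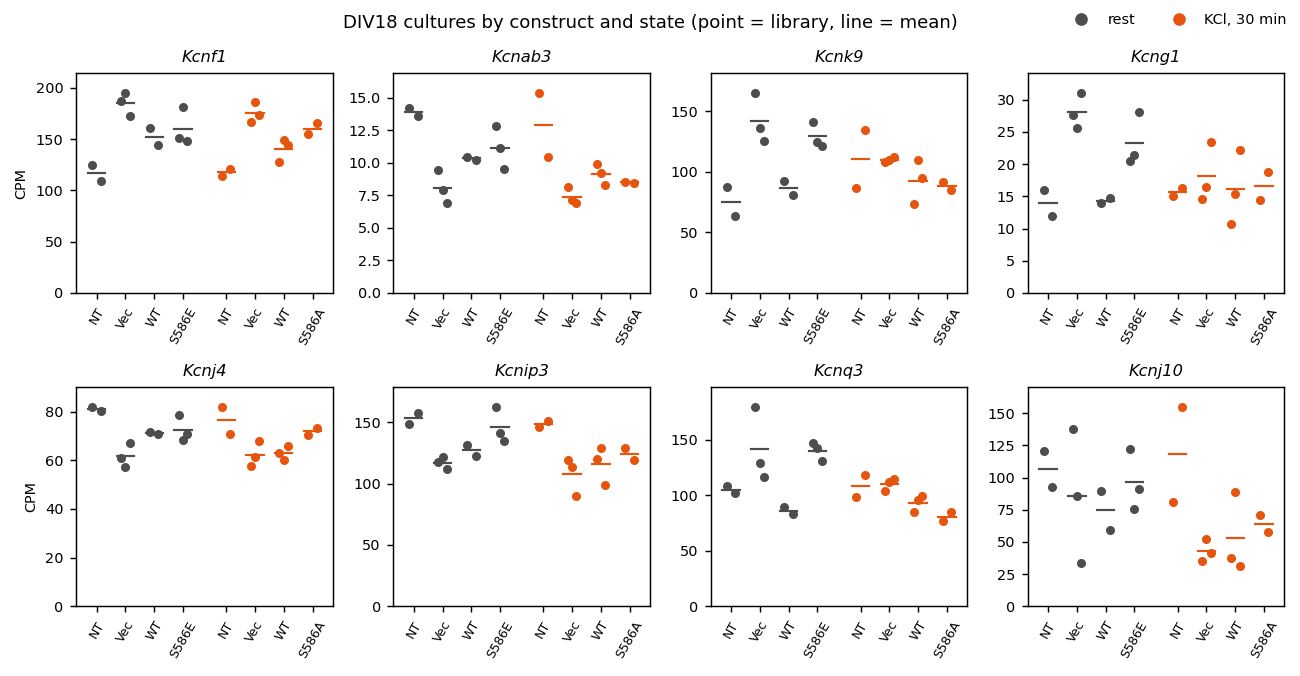
TMM-scaled counts relative to library size (CPM, vertical axes from 0) of 8 Kcn genes in the 20 DIV18 libraries by construct, at rest (grey) and after KCl (orange); points are libraries and lines group means. Vec libraries lie above NT for Kcnf1 and below NT for Kcnab3 and Kcnip3 in both states, WT libraries lie low for Kcnq3 at rest, and Kcnj10 spreads widely within groups.

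Adding back Smarcc2 gave no Kcn call against vector in either state (WT against Vec: 0 of 76 at rest and after KCl, edgeR; 0.0143% and 0.00955% of all genes called). At rest 18 Kcn genes had an unadjusted p under 0.05 (23.7%, against 11.1% of all genes), 14 of them lower in WT (18.4%, against 5.19% of all genes lower), and DESeq2 called 3. After KCl 4 did, all lower (5.26%, against 3.99% of all genes in either direction and 1.8% lower), and DESeq2 called 0. The Kcn median at rest was -0.14, against -0.01 over all genes.
Kcnq3 (ENSMUSG00000056258.9, chromosome 15, 65986387 to 66286642, minus strand) came closest at rest. It was at 180, 129 and 116 CPM in Vec and at 89.1 and 82.9 CPM in WT libraries (log2 fold change -0.72, SE 0.14, adjusted p 0.0846, edgeR; over the alternatives 2.9e-08 to 0.533). Kcnk9 was at 92.7 and 80.7 CPM in WT (-0.71, SE 0.18, adjusted p 0.159) and Kcng1 at 13.9 and 14.8 CPM (-0.97, SE 0.25, adjusted p 0.159). All 3 WT values lay below every resting Vec library given above; 26.1% of all genes and 34.2% of the Kcn genes had no overlap in this comparison. Kcnf1 was at 161 and 144 CPM in WT at rest (-0.28, adjusted p 0.292) and at 128, 149 and 144 CPM after KCl (-0.32, adjusted p 0.999).
Averaged over both states, a contrast added after the data were seen, 1 Kcn gene passed, Kcnq3 (-0.48, adjusted p 0.0436, edgeR), where 0.138% of all genes were called. It was not called with length offsets, when WT and Vec libraries were fitted alone, or in 9 of the 11 fits that left out a library, which gave 0 to 2 Kcn genes.
WT against NT gave 0 of 76 Kcn genes in each state (edgeR; 0.105% and 0.201% of all genes called), with 12 and 24 at an unadjusted p under 0.05 (15.8% and 31.6%, against 7.88% and 11% of all genes) and 0 and 4 by DESeq2. At rest Kcnf1 had the lowest p of the Kcn genes (0.38, adjusted p 0.246, edgeR).

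The S586E substitution replaces serine by glutamate, which is often used to mimic phosphorylation, and S586A replaces it by alanine, which cannot be phosphorylated. S586E against WT at rest called 0 of 76 Kcn genes, and 0% of all 20940 genes (edgeR). At an unadjusted p under 0.05 there were 20 Kcn genes (26.3%, against 12.9% of all genes), 18 higher and 2 lower (23.7% and 2.63%), against 6.26% and 6.62% of all genes, and DESeq2 called 4. The Kcn median was 0.14, against 0.01 over all genes. This comparison uses the same 2 resting WT libraries as WT against Vec, so that the values of both are not independent.
Kcnq3 was at 147, 142 and 131 CPM with S586E and at 89.1 and 82.9 CPM with WT (log2 fold change 0.70, SE 0.14, adjusted p 0.103, edgeR). Kcnma1 was at 470, 444 and 443 CPM with S586E and at 346 and 329 CPM with WT (0.42, SE 0.09, adjusted p 0.114). Kcnj6 was at 59.8, 51.7 and 47.7 CPM with S586E and at 37.1 and 40.0 CPM with WT (0.46, SE 0.12, adjusted p 0.141). In these 3 genes every S586E library lay above both WT libraries; 31.3% of all genes and 46.1% of the Kcn genes had no overlap in either direction.
Of the 76 Kcn genes, 51 had positive log2 fold changes. By family these included the Kv3 genes, all 3 Kv4 genes (0.16 to 0.41) and all 6 tested Kv1 genes (0.00 to 0.68). The highest Kv1 value was that of Kcna5 (SE 0.65), at means of 0.77 CPM with S586E and 0.47 CPM with WT. The first resting WT library had the lowest summed Kcn level of all 24, at 621 TPM, and the lowest share of counts in protein-coding genes, at 77.7%.
S586E against Vec at rest, where 0.0191% of all genes were called, gave 0 Kcn calls by edgeR and by DESeq2, with 11 at an unadjusted p under 0.05 (14.5%, against 7.45% of all genes). Kcnip3 (0.32, adjusted p 0.486) and Kcnab3 (0.47, adjusted p 0.49, edgeR) had the lowest p, and S586E libraries were at 163, 141 and 135 CPM for Kcnip3 and at 12.9, 11.1 and 9.56 CPM for Kcnab3.
S586A after KCl gave 0 Kcn calls against WT, where 0% of all genes were called, and 0 against Vec, where 0.00955% were (edgeR). DESeq2 also called 0 and 0. An unadjusted p under 0.05 was found in 6 and 11 Kcn genes (7.89% and 14.5%), against 8.71% and 13% of all genes. Against WT, 61 of the 76 Kcn genes had an approximate 95% interval that lay within 1 log2 unit of 0 in both directions. Kcnab2 (0.40, SE 0.14, adjusted p 0.515) had the lowest p against WT and Kcnq3 (-0.45, SE 0.14, adjusted p 0.207, edgeR) against Vec. Kcnq3 was at 76.7 and 84.4 CPM with S586A and at 85.0, 95.3 and 98.9 CPM with WT, so that S586A and WT nearly met.

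Other genes of potassium currents were read from lists of proteins not named Kcn. Of 12 tested auxiliary or associated proteins, 2 rose after KCl at DIV7, where 7.34% of all genes were called higher. They were Dpp10, a Kv4 partner (log2 fold change 0.38, adjusted p 0.0218, edgeR), and Lrrc26, a BK partner (0.83, adjusted p 0.0146). Of 11 pumps and cotransporters 0 were called, by edgeR, where 17% of all genes were called.
In Vec against NT at rest, where 3.77% of all genes were called lower, Hcn2, a hyperpolarization-activated channel, was lower (-0.50, adjusted p 0.00142, edgeR). The glial pump subunit Atp1b2 (-0.99, adjusted p 0.0049, edgeR) and the cotransporter Slc12a4 (-1.49, adjusted p 0.0151) were lower too. The other genes of these lists are not given for this comparison, so that the genes named do not describe the lists as a whole.
Between ages 8 of 11 pumps and cotransporters were higher at DIV18 on counts, among them Slc12a5, the neuronal chloride extruder (1.62), and 7 of 13 associated proteins were, where 26.8% of all genes were higher. Hcn2 (1.41) was higher and Hcn3 (-0.83) and Hcn4 (-0.83) lower. These lists were not tested on the TPM scale.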

How the data were processed

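Each library's deposited table gave, per the file headers, estimated counts, TPM and effective length for each transcript. The authors made these values with FastQC, cutadapt and kallisto, per the submitters' processing notes; versions and genome build are not given in the sources used here. Transcripts were matched to genes with GENCODE M21 on GRCm38 (99.2% of identifiers; unmatched counts made up at most 0.467% of a library), and estimated counts and TPM were summed by gene and estimated counts rounded. Effective lengths, an other quantity deposited by the authors, served only for length offsets.

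Counts were tested with edgeR 4.0.16 in R 4.3.3 (TMM scaling, filterByExpr, quasi-likelihood F test, Benjamini-Hochberg adjustment over all genes, threshold 0.05 with no minimum fold). DIV7 libraries were fitted alone (19822 genes, 75 Kcn genes), the 20 DIV18 libraries as 8 groups (20940 genes, 76), and all 24 libraries as 10 groups for culture age (22459 genes, 78). Another 16 Kcn genes passed the count filter in no fit. CPM values belong to the fit of their comparison. For culture age, log2(TPM + 0.5) was also tested with limma 3.58.1, without a low-value filter beyond the genes of the count fit. Fits of 5 of the comparisons were tested on simulated data, in which KCl at DIV7 and, by less, culture age gave a larger share of false calls than the threshold aims at.

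The Kcn genes and the gene lists were chosen with earlier results of these data known. Some genes are not reported here by name, although the counts include them. Otherwise in each comparison every called Kcn gene was named, or the 30 with the largest log2 change, with 15 genes named whatever their values; genes that were not called and fall outside that rule were chosen after their values were seen. Alternatives were DESeq2 1.42.0, its size factors, no count filter, length offsets, protein-coding transcripts only, only the groups compared, a replicate block, and leaving out each library. Replicate numbers come from the titles; with 3 pairs, every correlation of same-numbered deviations exceeded 0.1 for WT against Vec after KCl (0.106, 0.114 and 0.236) and S586E against Vec (0.293, 0.103 and 0.291), where the block left 0 and 0 Kcn genes called, and not for Vec after KCl against rest (0.128, 0.0689 and 0.238). Of the 94 Kcn genes 31 overlap another gene, 30 of them one on the opposite strand.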

Additional observations from a re-analysis of the deposited data

How the results depend on the processing

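Over 144 single-gene results, 1839 alternative values were computed: 1574 kept their direction and side of the threshold, 221 lost the call, 42 gained one and 2 changed sign (Kcna6 between ages, -1.53 with protein-coding transcripts only, and Kcna4, 0.0147 with length offsets); the cause was not tested. Counts of called Kcn genes between ages were 49 to 58.

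For KCl at DIV7 the count of 11 became 7 with DESeq2, 4 with length offsets, 20 with no count filter, 5 with protein-coding transcripts only and 26 with the replicate block, and 4 to 12 when a library was left out. With no count filter, KCl at DIV18 gave 2 in NT, 6 in Vec and 1 in WT. For Vec against NT at rest the count of 10 became 17 with DESeq2, 6 with length offsets, 19 with no filter, 3 with only these groups fitted, 19 with the block, and 0 to 12 with a library left out. After KCl the count of 7 became 11 with DESeq2, 16 with no filter and 1 to 4 with a library left out. Over both states it was 9 to 20 with a library left out.

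For WT against Vec at rest the count of 0 became 3 with DESeq2, 4 with no filter, 1 with protein-coding transcripts and 1 with the block, and 0 to 1 with a library left out; over both states the count of 1 became 5, 6, 2 and 5 in that order, 0 with length offsets, 0 with only these groups fitted and 0 to 2 with a library left out. For S586E against WT it was 4 with DESeq2, 11 with no filter, 1 with only these groups and 4 with the block. For WT against NT it was 1 with no filter at rest, and 4 with DESeq2 and 8 with no filter after KCl. No filter also gave 2 for S586A against WT, 2 for S586E against Vec, 4 for S586A against Vec and 5 for the difference of the Vec and NT responses. The difference of the NT and DIV7 responses became 3 with DESeq2, 5 with no filter, 2 with only these groups, 3 with the block, and 0 to 1 with a library left out. The cause of these moves was not tested.

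Groups of 2 or 3 libraries limit the tests: a lone library left in a group is assumed to vary like the other groups. Where the block is not supported by the pairing check, the replicate numbers are shared names only.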
